A study of Mus musculus with 12 samples.

Results

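Nuclear receptors are transcription factors that are switched by small fat-soluble ligands, and the array carried a probe for each of the 44 receptor genes described here, out of 17742 named genes measured. The 44 were taken by symbol, counting older synonyms, and each gene was represented by its brightest probe over the 12 arrays. Livers of mice labelled as 8 weeks old were compared in 3 groups of 2 samples, each sample on 2 arrays. The source names do not say at which step of the study this age holds. The control mice had no treatment, the STZ mice were diabetic after STZ (streptozotocin, a toxin of the insulin-producing beta cells), and the STZ+MENS mice were STZ-diabetic mice that also received MENS, which a printed circuit board delivered in sessions of 1 h, 5 days a week, for 6 weeks. Both diabetic groups thus share the STZ treatment and differ by MENS, a name that the labels do not spell out. The strain, the sex and whether a sample is 1 animal are not given in the labels, so the p-values below measure only the spread between these samples, which may be technical.

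A nuclear receptor binds DNA through a zinc-finger domain and recruits corepressors or coactivators depending on its ligand. Many of the metabolic receptors act as pairs with a retinoid X receptor, while the classical steroid receptors act mainly as pairs of their own kind after release from heat-shock chaperones. In liver, PPARs sense fatty acids, LXRs sense oxysterols, FXR senses bile acids, PXR and CAR sense drugs and other foreign compounds, and the glucocorticoid receptor drives the fasting programme. Receptors with no settled natural ligand are called orphans, and some of these, such as SHP, lack the DNA-binding domain and act by holding other receptors back.

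Values are given as log2(intensity + 50) per liver sample, the mean of its 2 arrays, always in the order sample 1 and sample 2 of a group. Differences are on that scale with the standard error (SE) from limma, and the adjusted p is limma's two-sided p after Benjamini-Hochberg adjustment over all 17742 genes. A difference is said to pass the unadjusted threshold where limma's p before that adjustment was under 0.05, a mark that is read only beside the share of all genes past it. Where misses of it are listed for a member, the list covers fits with 1 sample left out, and other settings are named only in places. A mean intensity of 50 or more was seen for all members but Pparg, and array medians lay between 768.89 and 770.33 on all arrays. Arrays of the same sample correlated at 0.986 to 0.996 over all genes, and arrays of different samples in a group at 0.976 to 0.988. Liver tissue was measured in bulk, so fewer cells of a type and less RNA per cell cannot be told apart in any value below. The labelled tissue was borne out by 7 of the 10 hepatocyte markers, which were measured and all bright, with a summed intensity of 2431357 to 2442763 in control, 2158666 to 2343126 in STZ and 2223411 to 2325908 in STZ+MENS samples.

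No member passed the adjusted threshold of 0.05 in any of the 3 comparisons, beside 1 gene (0.00564%) of all genes for STZ against control, 0 genes (0%) for STZ+MENS against STZ and 1 gene (0.00564%) for STZ+MENS against control. The lowest adjusted p of a member was 0.0924, 0.0595 and 0.111 in these comparisons. At an unadjusted p under 0.05, 11 of 44 members (25%) passed for STZ against control, 3 higher and 8 lower in STZ, beside 17% of all genes (8.48% higher, 8.49% lower). For STZ+MENS against STZ, 15 members (34.1%) passed, 9 higher and 6 lower, beside 25.4% of all genes (12.6% higher, 12.8% lower). For STZ+MENS against control, 12 members (27.3%) passed, 5 higher and 7 lower, beside 18% of all genes (8.82% higher, 9.18% lower). These shares lie above those of all genes in each comparison, and 22 members passed in at least 1 comparison while the other 22 passed in none. The counts depend on single samples. STZ against control gave 3 members (6.82%) when control sample 2 was left out, beside 10.2% of all genes in the same fit. It gave 6 (13.6%) without STZ sample 2, beside 11%, and 7 (15.9%) without control sample 1 or STZ sample 1, beside 11.6% and 11%. STZ+MENS against STZ gave 9 (20.5%, beside 13.5%) without STZ sample 1. STZ+MENS against control gave 7 (15.9%) without either control sample, beside 10.2% of all genes without sample 1 and 12.6% without sample 2. The counts rest on the brightest probe, and for Nr0b2, Nr0b1 and Vdr another probe gave another direction in at least 1 comparison.

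The median member difference was -0.08 for STZ against control, 0.13 for STZ+MENS against STZ and 0.05 for STZ+MENS against control, beside -0.02, 0.06 and 0.02 over all genes. Both samples of a group lay outside the range of the other group for 29, 27 and 24 members, or 65.9%, 61.4% and 54.5%, beside 52.1%, 57.9% and 48.6% of all genes. The SD of a member between the samples of its group had a median of 0.14 for control, 0.11 for STZ and 0.16 for STZ+MENS.

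**Figure D1:**
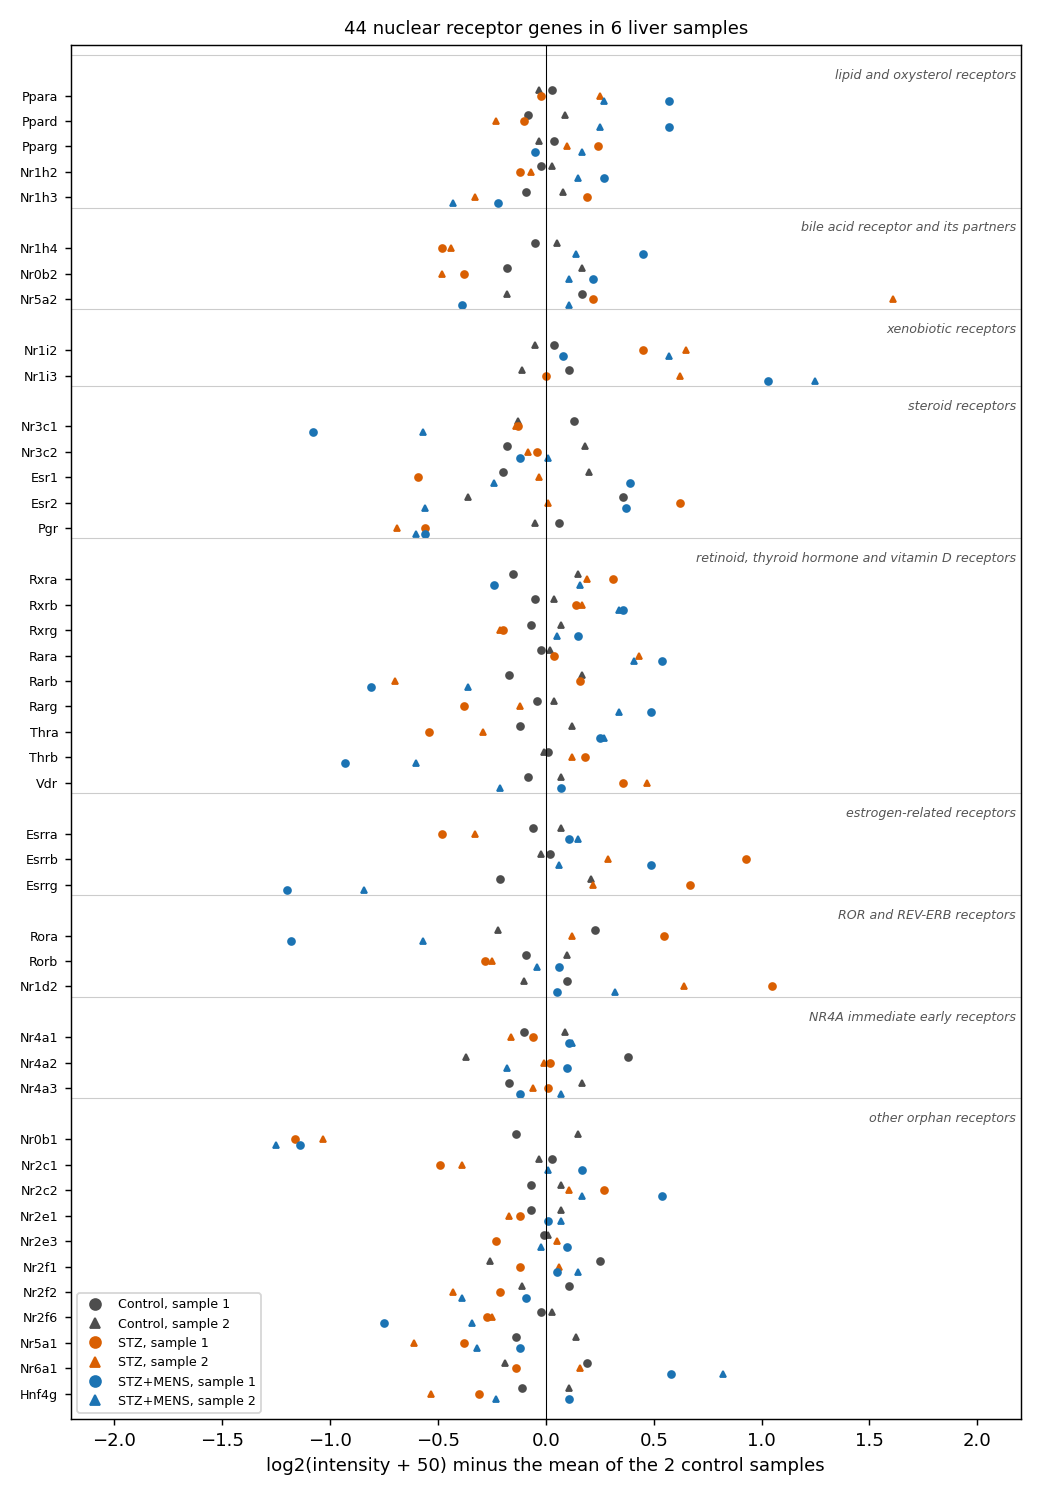
Each of the 44 receptor genes is a row, and the x axis is log2(intensity + 50) minus the mean of the 2 control samples. Circles are sample 1 and triangles sample 2 of control (grey), STZ (orange) and STZ+MENS (blue). Most points lie within 0.5 of the control mean, and STZ sample 2 stands apart for Nr5a2.

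Of the 5 fatty acid and oxysterol receptors, 0 passed the unadjusted threshold for STZ against control (17% of all genes), 1 passed for STZ+MENS against STZ (25.4% of all genes) and 0 passed for STZ+MENS against control (18% of all genes), counts too small to set the group apart from all genes. Ppara, the fasting receptor that drives hepatic fatty acid oxidation, stood at 15.47 and 15.41 in control, 15.42 and 15.69 in STZ, and 16.01 and 15.71 in STZ+MENS. Both STZ+MENS values lay above every other sample, at 1.34-fold of control (difference 0.42 ± 0.17, adjusted p = 0.278). Ppard, which promotes fatty acid use in many tissues, read 10.72 and 10.89 in control, 10.70 and 10.57 in STZ, and 11.37 and 11.05 in STZ+MENS. It was 1.49-fold higher in STZ+MENS than in STZ (difference 0.57 ± 0.17, adjusted p = 0.113). It passed the unadjusted threshold, but not without STZ+MENS sample 1 (0.42) or STZ sample 2 (0.51). Pparg, the fat-storage receptor, was dim, with a mean intensity of 28.7, so its values of 6.25 and 6.18, 6.45 and 6.31, and 6.16 and 6.38 carry no direction. The LXRs switch on cholesterol export and fatty acid synthesis. Nr1h2 (LXR beta) measured 9.25 and 9.30 in control, 9.15 and 9.20 in STZ, and 9.54 and 9.42 in STZ+MENS, where both samples were the highest (difference to STZ 0.30 ± 0.13, adjusted p = 0.221). Nr1h3 (LXR alpha) measured 14.81 and 14.98, 15.09 and 14.57, and 14.68 and 14.47 in the same order. The STZ samples of Nr1h3 spanned both control samples, and no difference of it passed the unadjusted threshold.

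A second, dimmer probe of Ppara did not follow the bright one. It read 11.08 in both control samples, 11.08 and 13.73 in STZ, and 11.97 and 12.08 in STZ+MENS. The difference of 1.32 ± 0.77 between STZ and control did not pass the unadjusted threshold and rests on STZ sample 2 alone, the sample in which Nr5a2 also stood apart.

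Known PPAR alpha targets were examined as a list of 23, of which 19 were measured. For STZ against control, 10 of 19 were higher and 0 lower at the unadjusted threshold, which all list counts below use, beside 17% of all genes, with a median difference of 0.50. Acot1, an acyl-CoA thioesterase, stood at 13.03 and 13.15 in control, 15.30 and 15.68 in STZ and 14.48 and 14.95 in STZ+MENS (STZ against control 2.40 ± 0.22, adjusted p = 0.0654). Acot2, its mitochondrial relative, differed by 1.71 ± 0.21 for STZ against control and by -1.19 ± 0.21 for STZ+MENS against STZ (adjusted p = 0.0595). Ehhadh, a peroxisomal oxidation enzyme, was at 14.65 and 14.30 in control, 15.59 and 15.34 in STZ, and 13.07 and 13.58 in STZ+MENS, below every other sample there (STZ+MENS against STZ -2.14 ± 0.23, adjusted p = 0.0573). Acadl, a mitochondrial dehydrogenase of long fatty acids, differed by 0.58 ± 0.13 for STZ against control and by -0.71 ± 0.13 for STZ+MENS against STZ. For STZ+MENS against STZ, 1 of the 19 was higher and 7 were lower (42.1%, beside 25.4% of all genes). For STZ+MENS against control 7 were higher and 2 lower (47.4%, beside 18%). Without control sample 1 the counts against control were 6 for STZ and 3 for STZ+MENS, and without control sample 2 the latter was 4. List counts with a sample left out, here and below, are read only beside the shares of all genes in such fits, given in the closing section. The receptor's own bright probe differed by 0.11 ± 0.17 between STZ and control.

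Of 13 listed LXR targets, 12 were measured. For STZ against control, 1 was higher and 3 were lower (33.3%, beside 17% of all genes), with a median of 0.02. For STZ+MENS, 2 were higher and 1 lower than in STZ (25%, beside 25.4%), and 1 was higher and 2 lower than in control (25%, beside 18%). Scd1, the desaturase of fat synthesis, stood at 19.10 and 19.13 in control, 16.70 and 15.40 in STZ and 18.88 and 16.58 in STZ+MENS (STZ against control -3.07 ± 0.76, adjusted p = 0.157). Pltp, a phospholipid carrier of lipoproteins, had values of 13.87 and 13.17, 10.89 and 10.43, and 14.12 and 11.92 in the same order. In both genes STZ+MENS sample 1 lay near control, while sample 2 lay between the groups for Pltp and within the STZ range for Scd1. Abca1, the cholesterol exporter, was lower in STZ (-0.79 ± 0.18, adjusted p = 0.145), and Rgs16, a regulator of G protein signalling, was higher in STZ (1.95 ± 0.45) and in STZ+MENS (2.89 ± 0.45 against control).

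Among the bile acid receptor and its partners, FXR was lowest in the STZ livers and highest in the STZ+MENS livers. FXR (Nr1h4), the bile acid sensor that represses bile acid synthesis and raises bile acid export, stood at 16.63 and 16.73 in control, 16.20 and 16.24 in STZ, and 17.13 and 16.82 in STZ+MENS. The 3 groups did not overlap. The gene was 1.37-fold lower in STZ than in control (difference -0.46 ± 0.16, adjusted p = 0.234) and 1.69-fold higher in STZ+MENS than in STZ (0.75 ± 0.16, adjusted p = 0.0699). The second difference passed the unadjusted threshold in all 19 alternative settings, between 0.60 and 0.91. The first did so in 14 of 19, and missed it when any 1 of the control or STZ samples was left out, at -0.51 to -0.41. For a member with 1 probe, here and below, the settings on the choice of probe reuse the same values. Leaving out a sample of the third group also leaves the difference itself unchanged. A tally out of 19 thus overstates the number of separate checks.

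SHP (Nr0b2) is the receptor that FXR induces to hold back bile acid synthesis, and its brightest probe, named SHP on the array, ran the same way as FXR. It read 13.58 and 13.93 in control, 13.38 and 13.28 in STZ, and 13.98 and 13.87 in STZ+MENS. STZ was below both other groups, which overlapped each other. The differences were -0.43 ± 0.17 for STZ against control (adjusted p = 0.276) and 0.59 ± 0.17 for STZ+MENS against STZ (adjusted p = 0.106). A nearly as bright probe, named NR0B2, ran the other way: 12.76 and 12.52 in control, 13.89 and 14.30 in STZ, and 13.32 and 14.06 in STZ+MENS. Its difference between STZ and control was 1.46 ± 0.28, so the direction for SHP depends on the probe and is not settled by these arrays. With the SHP-named probe, STZ against control passed the unadjusted threshold only while control sample 2 and all 4 diabetic samples were kept (-0.48 to -0.25 without 1 of these), and STZ+MENS against STZ missed it without STZ sample 2 (0.55).

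**Figure D2:**
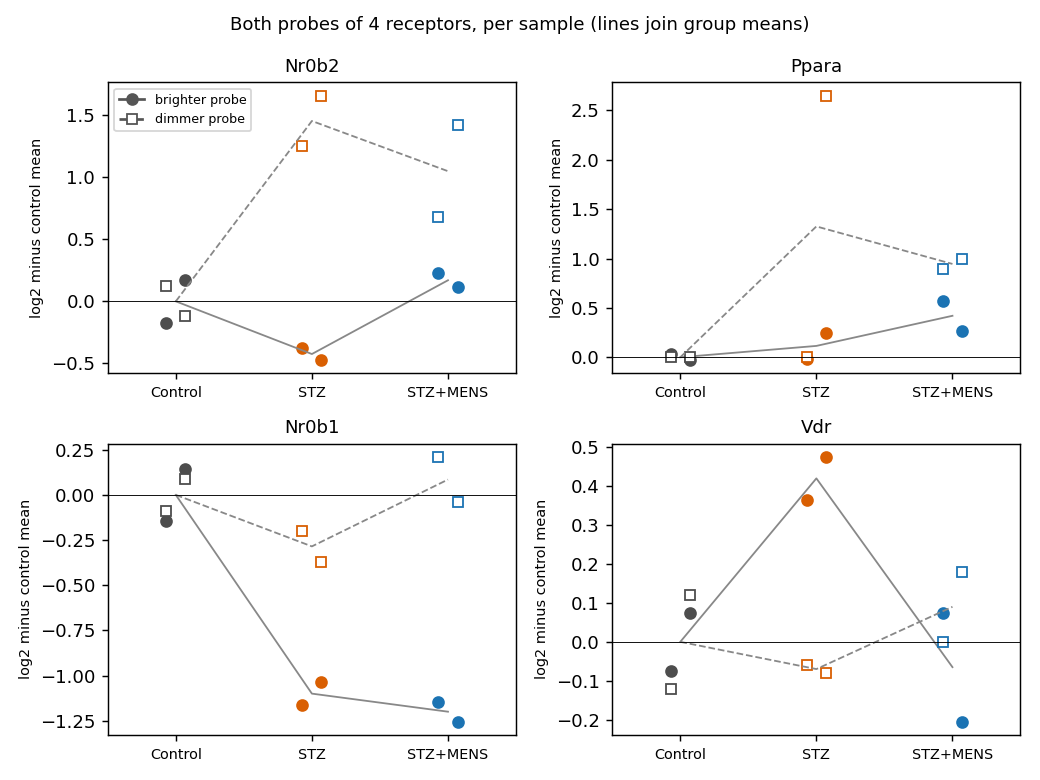
For 4 receptors with more than 1 probe, the y axis shows log2(intensity + 50) minus the control mean of the same probe, per sample, for control, STZ and STZ+MENS; filled circles are the brighter probe, open squares the dimmer one, and lines join group means. The probes of Nr0b2 part in STZ, where the brighter lies below 0 and the dimmer above 1.

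LRH-1 (Nr5a2), the orphan receptor that SHP represses on the bile acid synthesis genes, stood at 12.74 and 12.39 in control, 12.79 and 14.18 in STZ, and 12.18 and 12.68 in STZ+MENS. STZ sample 2 was far above the other 5 samples, on both of its arrays (14.16 and 14.19). The differences of 0.92 ± 0.45 (STZ against control, adjusted p = 0.369) and -1.06 ± 0.45 (STZ+MENS against STZ, adjusted p = 0.209) lean on that sample.

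The promoters of the FXR and SHP genes are shown because these receptors form the FXR to SHP relay. Each line gives the 250 bases before a RefSeq transcript start (GRCm38.p6), the 1 start per gene that the sequence table holds, 5′ to 3′ on the gene's strand, with matches to the searched motifs other than the GC box in capitals. Nr1h4 covers chr10:89506659-89506908 on the minus strand, at a start that lies 27.0 kb inside the outermost 5′ end annotated for the gene, with 1 match, TGACCT, at 214 bases before the start, which is the nuclear receptor hexamer AGGTCA on the other strand. Nr0b2 covers chr4:133553126-133553375 on the plus strand, with the E-box CACGTG at 195 and the TATA box TATAAA at 28 bases before the start.
Nr1h4: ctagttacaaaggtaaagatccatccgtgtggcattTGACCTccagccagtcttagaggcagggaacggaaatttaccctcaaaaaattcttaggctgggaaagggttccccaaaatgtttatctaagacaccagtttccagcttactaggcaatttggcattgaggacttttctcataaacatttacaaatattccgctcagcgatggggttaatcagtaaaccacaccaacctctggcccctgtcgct
Nr0b2: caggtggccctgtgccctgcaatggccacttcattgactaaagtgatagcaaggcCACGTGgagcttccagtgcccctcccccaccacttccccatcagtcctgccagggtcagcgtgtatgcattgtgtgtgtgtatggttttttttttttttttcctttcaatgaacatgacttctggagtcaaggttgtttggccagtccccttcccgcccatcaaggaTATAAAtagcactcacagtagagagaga

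Of 19 listed FXR and SHP targets and bile acid genes, 15 were measured, and the enzymes Cyp7a1, Cyp8b1, Cyp27a1 and Cyp7b1 were not analysed here. For STZ against control 2 were higher and 3 lower (33.3%, beside 17% of all genes, median -0.16). For STZ+MENS against STZ 4 were higher and 2 lower (40%, beside 25.4%, median -0.15). The first count was 2 when control sample 1 was left out and 3 when control sample 2 or STZ sample 1 was, and the second was 2 without STZ+MENS sample 1. Slc10a1 (NTCP), which takes bile acids up from blood, stood at 12.40 and 12.94 in control, 12.23 and 12.09 in STZ, and 14.21 and 13.43 in STZ+MENS. Both STZ+MENS samples were above every other sample (1.67 ± 0.30 against STZ, adjusted p = 0.0595). Abcb11 (BSEP), the canalicular bile acid export pump and a direct FXR target, ran the opposite way at 14.47 and 14.70, 15.27 and 14.61, and 13.21 and 13.65. It was lower in STZ+MENS than in STZ, by -1.51 ± 0.27 (adjusted p = 0.0595). Abcb4, the phospholipid exporter of bile, was 1.08 ± 0.18 higher in STZ than in control (adjusted p = 0.101). Slc51b, a subunit of the basolateral bile acid exporter, was lowest in STZ like FXR, at 14.27 and 14.55 in control, 13.65 and 13.33 in STZ, and 14.38 and 13.97 in STZ+MENS (STZ against control -0.92 ± 0.21, adjusted p = 0.143, and STZ+MENS against STZ 0.68 ± 0.21, adjusted p = 0.122). Genes of this list thus lay on both sides of 0 for STZ+MENS against STZ, where FXR itself was higher.

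The xenobiotic receptors PXR and CAR differed in which group stood apart. PXR (Nr1i2), a broad sensor of drugs, read 12.22 and 12.13 in control, 12.63 and 12.83 in STZ, and 12.26 and 12.75 in STZ+MENS. STZ was 1.46-fold higher than control (0.55 ± 0.20, adjusted p = 0.249), and STZ+MENS sample 1 lay near control while sample 2 lay among the STZ values. PXR missed the unadjusted threshold when any 1 of the control or STZ samples was left out (0.45 to 0.65). CAR (Nr1i3), which moves to the nucleus in response to phenobarbital-like compounds, read 14.92 and 14.70 in control, 14.81 and 15.43 in STZ, and 15.84 and 16.06 in STZ+MENS. Both STZ+MENS samples were above all 4 others, at 2.21-fold of control (1.14 ± 0.24, adjusted p = 0.125) and 1.78-fold of STZ (0.83 ± 0.24, adjusted p = 0.107). The difference to control passed the unadjusted threshold in all 19 alternative settings, between 1.03 and 1.25, and the one to STZ in 18, with 0.52 without STZ sample 1 as the exception. CAR had the highest difference of all members in both comparisons with STZ+MENS. Its promoter is shown for that reason, in the same form as above, from chr1:171213720-171213969 on the plus strand, at a start 36 bases inside the gene's outermost annotated 5′ end, with the E-box CACGTG at 244 bases before the start.
Nr1i3: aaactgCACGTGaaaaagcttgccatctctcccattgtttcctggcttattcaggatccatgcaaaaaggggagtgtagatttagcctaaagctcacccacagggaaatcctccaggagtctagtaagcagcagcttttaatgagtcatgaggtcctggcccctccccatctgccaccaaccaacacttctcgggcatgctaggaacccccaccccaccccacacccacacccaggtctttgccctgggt

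Of 25 listed PXR and CAR targets only 12 were measured, and the cytochrome P450 genes of the list, its best known members, were not analysed here. For STZ against control 3 were higher and 3 lower (50%, beside 17% of all genes). For STZ+MENS against STZ 1 was higher and 6 were lower (58.3%, beside 25.4%). For STZ+MENS against control 0 were higher and 2 lower (16.7%, beside 18%). Abcb1a, a drug exporter, stood at 9.72 and 9.50 in control, 10.50 and 10.81 in STZ, and 9.39 and 9.61 in STZ+MENS. It was thus high in STZ and at the control level in STZ+MENS (STZ+MENS against STZ -1.15 ± 0.18, adjusted p = 0.0595). Ugt2b34, a glucuronyl transferase, differed by -1.81 ± 0.36 between STZ+MENS and STZ, with values of 12.87 and 13.96 in STZ+MENS against 15.45 and 15.00 in STZ. Ces2a, a carboxylesterase, differed by -0.59 ± 0.14 for STZ and -0.83 ± 0.14 for STZ+MENS against control. Thrsp, a lipogenic protein also on the thyroid hormone list, stood at 17.42 and 17.32, 14.99 and 15.50, and 17.50 and 16.46. In STZ+MENS against control, where CAR itself was 2.21-fold higher, leaving out STZ+MENS sample 1 gave 5 of the 12 genes past the threshold, and leaving out sample 2 gave 4.

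**Figure D3:**
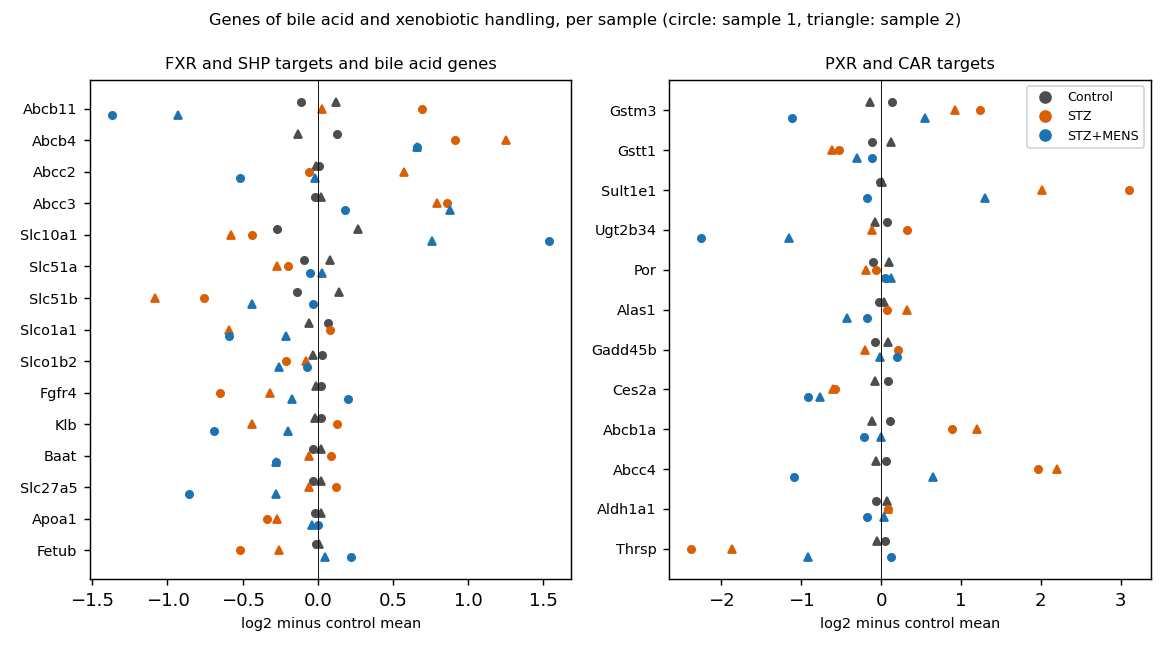
The measured genes of the bile acid list (left) and of the PXR and CAR list (right) are rows, and the x axis is log2(intensity + 50) minus the control mean. Circles are sample 1 and triangles sample 2 of control (grey), STZ (orange) and STZ+MENS (blue). Slc10a1 lies to the right and Abcb11 to the left of control in both STZ+MENS samples.

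Of the 5 steroid receptors, 0 were higher and 1 was lower at the unadjusted threshold in STZ than in control (20%, beside 17% of all genes). For STZ+MENS, 0 were higher and 1 was lower than in STZ (20%, beside 25.4%), and 0 were higher and 2 lower than in control (40%, beside 18%). The glucocorticoid receptor (Nr3c1), which drives gluconeogenic genes in fasting and stress, stood at 12.66 and 12.40 in control, 12.40 and 12.39 in STZ, and 11.45 and 11.96 in STZ+MENS. Both STZ+MENS samples were below all others, 1.77-fold under control (-0.82 ± 0.21, adjusted p = 0.143) and 1.62-fold under STZ (-0.69 ± 0.21, adjusted p = 0.118). The difference to control passed the unadjusted threshold in all 19 alternatives. The one to STZ missed it without STZ+MENS sample 1 (-0.43) or either of the STZ samples (-0.69 and -0.70). The progesterone receptor (Pgr), best known from the reproductive tract, read 10.97 and 10.86 in control, 10.35 and 10.22 in STZ, and 10.35 and 10.31 in STZ+MENS. The diabetic groups overlapped each other and lay below control, by -0.63 ± 0.14 (adjusted p = 0.136) and -0.58 ± 0.14 (adjusted p = 0.133), and both differences passed the unadjusted threshold in all 19 alternatives. The mineralocorticoid receptor (Nr3c2), the aldosterone receptor, stayed between 10.12 and 10.48, with 10.12 and 10.48 in control, 10.26 and 10.22 in STZ and 10.18 and 10.31 in STZ+MENS. Estrogen receptor alpha (Esr1), the main estrogen receptor of liver, stood at 12.82 and 13.22, 12.43 and 12.99, and 13.41 and 12.78, with overlap between all groups. Estrogen receptor beta (Esr2) was higher in sample 1 than in sample 2 of every group, with SDs of 0.50, 0.43 and 0.65, and none of its differences passed the unadjusted threshold.

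All 21 listed glucocorticoid receptor targets were measured. For STZ against control 47.6% passed, beside 17% of all genes, and for STZ+MENS against STZ 42.9%, beside 25.4%. For STZ against control 9 were higher and 1 was lower, with a median of 0.68, and for STZ+MENS against STZ 2 were higher and 7 lower, with a median of -0.38 and 5 genes past the threshold when STZ+MENS sample 1 or STZ sample 1 was left out. Against control, STZ+MENS had 8 higher and 1 lower (42.9%, beside 18% of all genes) while the receptor's own level was lower. Of all 21 genes, 12 lay above 0 in that comparison, with a median of 0.22, and the lower gene was Tat (-1.29 ± 0.23, adjusted p = 0.114). Mt1 and Mt2 are metal-binding metallothioneins. Mt1 stood at 14.29 and 14.54 in control, 16.33 and 16.53 in STZ, and 17.11 and 17.71 in STZ+MENS (2.99 ± 0.23 against control, adjusted p = 0.0944). Mt2 was 4.56 ± 0.42 higher in STZ and 4.46 ± 0.42 higher in STZ+MENS than in control (adjusted p = 0.0654 and 0.111). Cdkn1a, the cell cycle inhibitor p21, read 10.81 and 10.17, 14.95 and 14.86, and 12.51 and 14.39 in the same order, with STZ+MENS sample 1 nearer to control than sample 2. Zbtb16, a zinc-finger repressor induced by glucocorticoid, differed by 3.28 ± 0.50 for STZ against control and by -1.83 ± 0.50 for STZ+MENS against STZ (adjusted p = 0.1).

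Of 15 listed genes of estrogen and steroid handling, 11 were measured. For STZ+MENS against STZ, 0 were higher and 5 lower (45.5%, beside 25.4% of all genes, median -0.36). For STZ against control 3 were higher and 0 lower (27.3%, beside 17%). The first count was 2 without STZ sample 1 and the second 6 without STZ sample 2. Akr1c6, a reductase of steroid hormones, stood at 16.18 and 16.24, 16.08 and 16.14, and 14.90 and 15.21, with STZ+MENS below all others (-1.06 ± 0.16 against STZ, adjusted p = 0.0595). Sult1e1, the estrogen sulfotransferase, which is also on the PXR and CAR list, stood at 7.31 and 7.33 in control, 10.42 and 9.34 in STZ, and 7.14 and 8.62 in STZ+MENS. Hsd17b13, a lipid droplet dehydrogenase, and Hsd17b6, a steroid epimerase, were 0.87 ± 0.16 and 0.72 ± 0.14 higher in STZ than in control.

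Of 18 receptor chaperones and ligand carriers 14 were measured. For STZ against control 1 was higher and 0 lower (7.14%, beside 17% of all genes). For STZ+MENS against STZ 0 were higher and 2 lower (14.3%, beside 25.4%). The first count was 2 when either of the STZ samples was left out, and the second was 4 when STZ+MENS sample 2 was left out and 1 when STZ sample 1 was. Dnaja1, an HSP40 chaperone that loads steroid receptors onto HSP70, was at 15.91 and 15.47 in control, 16.23 and 15.88 in STZ, and 14.61 and 14.97 in STZ+MENS. Both STZ+MENS samples lay below all others (-1.26 ± 0.23 against STZ, adjusted p = 0.0595). Fkbp5, an HSP90 partner that dampens the glucocorticoid receptor and is also on its target list, was 1.28 ± 0.28 higher in STZ than in control. Serpina6, the corticosteroid carrier of blood, differed by -0.51 ± 0.15 and Hsp90ab1, an HSP90 chaperone, by -0.67 ± 0.32 (adjusted p = 0.244) for STZ+MENS against STZ.

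The retinoid X receptors are the shared partners of the metabolic receptors. Rxra, the main hepatic form, stood at 16.63 and 16.93 in control, 17.09 and 16.97 in STZ and 16.54 and 16.94 in STZ+MENS, with no difference past the unadjusted threshold, and its second probe had a difference of 0.23 ± 0.27 between STZ and control. Rxrb read 14.19 and 14.28, 14.38 and 14.41, and 14.60 and 14.58, in 3 groups that did not overlap. It was 1.28-fold higher in STZ+MENS than in control (0.36 ± 0.13, adjusted p = 0.241), and missed the unadjusted threshold when any 1 of the 6 samples was left out (0.31 to 0.40). Rxrg differed by 0.31 ± 0.14 at most (adjusted p = 0.223).

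Of the retinoic acid receptors, which respond to the vitamin A acid, Rarg separated best. It stood at 12.66 and 12.74 in control, 12.32 and 12.58 in STZ, and 13.19 and 13.04 in STZ+MENS. STZ+MENS was 1.59-fold above STZ (0.67 ± 0.15, adjusted p = 0.0781), past the unadjusted threshold in all 19 alternatives, and 0.42 ± 0.15 above control (adjusted p = 0.241). The last difference missed the threshold without control sample 1 (0.38), control sample 2 (0.46) or STZ+MENS sample 1 (0.34). It also did so with either array of each sample alone, with the liver sample as a random effect and with a replicate block. Rara read 12.08 and 12.12, 12.14 and 12.53, and 12.64 and 12.51, a 1.39-fold higher level in STZ+MENS than in control (0.48 ± 0.17, adjusted p = 0.236). It missed the unadjusted threshold without control sample 1 (0.45), control sample 2 (0.50) or STZ+MENS sample 1 (0.41). It also did so with either array of each sample alone and with the liver sample as a random effect. The arrays of a sample differed by up to 0.60. Rarb varied within groups, with an SD of 0.61 in STZ, and no difference passed.

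The thyroid hormone receptors ran in opposite directions between STZ and STZ+MENS. Thra, the form that is widespread in heart and brain, stood at 9.44 and 9.68 in control, 9.02 and 9.27 in STZ, and 9.81 and 9.83 in STZ+MENS. Thrb, the main hepatic form, stood at 12.75 and 12.73 in control, 12.92 and 12.86 in STZ, and 11.81 and 12.14 in STZ+MENS. STZ+MENS was thus the highest group for Thra and the lowest for Thrb. Against STZ, Thra was 1.60-fold higher (0.68 ± 0.16, adjusted p = 0.0818) and Thrb 1.89-fold lower (-0.92 ± 0.16, adjusted p = 0.0595). Both passed the unadjusted threshold in all 19 alternatives, from 0.56 to 0.81 for Thra and from -1.09 to -0.75 for Thrb. Against control, Thrb was 1.70-fold lower (-0.77 ± 0.16, adjusted p = 0.127), also past it in all 19. Thra was also 1.34-fold lower in STZ than in control (-0.42 ± 0.16, adjusted p = 0.274), but missed the unadjusted threshold without control sample 2 (-0.30), STZ sample 1 (-0.29) or either of the STZ+MENS samples (-0.42). The vitamin D receptor (Vdr), a calcium regulator, gave 0.42 ± 0.16 for STZ against control and -0.48 ± 0.16 for STZ+MENS against STZ. Its 2 arrays of a sample differed by up to 1.52, more than any group difference, and its second probe gave -0.07 ± 0.15 and 0.16 ± 0.15, so no direction is read for it.

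Of 11 retinoid genes 6 were measured, with 0 higher and 1 lower for STZ against control (16.7%, beside 17% of all genes). For STZ+MENS against STZ 2 were higher and 1 lower (50%, beside 25.4%). For STZ+MENS against control 0 were higher and 1 lower (16.7%, beside 18%). The first count was 0 without control sample 1, and the second was 1 without STZ sample 1. Rdh11, a retinal reductase, stood at 14.36 and 14.05 in control, 12.66 and 12.69 in STZ, and 14.85 and 13.53 in STZ+MENS. Lrat, the enzyme that stores vitamin A as esters and a marker of stellate cells, stood at 11.15 and 10.83, 11.11 and 10.44, and 10 and 9.99 (STZ+MENS against control -1 ± 0.25, adjusted p = 0.138). Lrat is itself on the stellate cell and fibroblast list, as 1 of its lower genes. That list had 1 of 11 genes higher and 2 lower in that comparison (27.3%, beside 18% of all genes). Its summed intensity was 243966 to 290718 in control, 234624 to 245573 in STZ and 232459 to 338435 in STZ+MENS. Its part in the Lrat value was not tested. Dhrs3, another retinal reductase, differed by 0.47 ± 0.18 between STZ+MENS and STZ. All 10 thyroid hormone targets were measured, with 0 higher and 1 lower for STZ against control (10%, beside 17% of all genes). There were 1 higher and 1 lower in each comparison with STZ+MENS (20%, beside 25.4% and 18% of all genes). In both, 6 genes passed when STZ+MENS sample 1 was left out and 5 when sample 2 was, and against control 1 passed when control sample 1 was. Thrsp, a classical thyroid hormone response gene, differed by -2.12 ± 0.35 for STZ against control (adjusted p = 0.107) and by 1.74 ± 0.35 for STZ+MENS against STZ. Klf9, a transcription factor induced by thyroid hormone and glucocorticoid, was 0.89 ± 0.20 higher in STZ+MENS than in control. Idh3a, a subunit of a citric acid cycle enzyme, was at 11.72 and 12.22 in STZ+MENS against 13.33 and 12.72 in STZ (-1.06 ± 0.27, adjusted p = 0.0913).

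The estrogen-related receptors, orphans that work with PGC-1 coactivators on mitochondrial genes, also split. Esrra stood at 12.97 and 13.10 in control, 12.55 and 12.70 in STZ, and 13.14 and 13.18 in STZ+MENS. STZ was below both other groups (-0.41 ± 0.14 against control, adjusted p = 0.23, and 0.54 ± 0.14 from STZ to STZ+MENS, adjusted p = 0.0938). Without STZ sample 1 both missed the unadjusted threshold (-0.34 and 0.46), and without control sample 2 the first did (-0.34). Both also missed it with the second array of each sample only, and the first with the first array only. The arrays of a sample differed by up to 0.62. Esrrg stood at 9.28 and 9.70 in control, 10.16 and 9.71 in STZ, and 8.29 and 8.65 in STZ+MENS. It was 2.77-fold lower in STZ+MENS than in STZ (-1.47 ± 0.24, adjusted p = 0.0595) and 2.03-fold lower than in control (-1.02 ± 0.24, adjusted p = 0.132), past the unadjusted threshold in all 19 alternatives for both. This was the largest difference of any member between STZ+MENS and STZ. Esrrb varied by up to 1.26 between the arrays of a sample, and no difference of it passed.

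ROR receptors activate and REV-ERB receptors repress the same clock and lipid genes. Rora (ROR alpha) stood at 12.86 and 12.41 in control, 13.18 and 12.75 in STZ, and 11.45 and 12.06 in STZ+MENS. Both STZ+MENS samples were the lowest, 2.32-fold under STZ (-1.21 ± 0.28, adjusted p = 0.0772) and 1.84-fold under control (-0.88 ± 0.28, adjusted p = 0.193). The first passed the unadjusted threshold in all 19 alternatives, and the second missed it without control sample 1 (-0.66) or STZ+MENS sample 1 (-0.57). REV-ERB beta (Nr1d2) stood at 11.91 and 11.71 in control, 12.86 and 12.45 in STZ, and 11.86 and 12.13 in STZ+MENS. STZ was 1.80-fold above control (0.84 ± 0.20, adjusted p = 0.148), past the unadjusted threshold in all 19 alternatives. STZ+MENS was 1.58-fold below STZ and overlapped control (-0.66 ± 0.20, adjusted p = 0.116). The 2 arrays of STZ+MENS sample 2 read 11.67 and 12.58, a gap of 0.91 that exceeds this difference. It missed the unadjusted threshold with the second array of each sample only, and without STZ+MENS sample 1 (-0.53) or STZ sample 1 (-0.46). The promoter of Nr1d2, the member with the highest STZ against control difference past that threshold, lies at chr14:18239107-18239356 on the minus strand and has AGGTCA at 77 bases before the start.
Nr1d2: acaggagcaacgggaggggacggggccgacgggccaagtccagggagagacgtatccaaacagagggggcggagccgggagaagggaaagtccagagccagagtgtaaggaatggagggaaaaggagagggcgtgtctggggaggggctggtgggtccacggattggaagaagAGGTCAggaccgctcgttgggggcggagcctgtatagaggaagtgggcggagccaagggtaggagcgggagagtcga

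The NR4A receptors, immediate early genes of hormone and stress signals, had no difference past the unadjusted threshold. Nr4a1 stood at 11.71 and 11.90 in control, 11.75 and 11.65 in STZ, and 11.92 and 11.93 in STZ+MENS, where both samples were the highest by a small margin. By their brightest probes the differences of Nr4a1, Nr4a2 and Nr4a3 lay between -0.11 and 0.22 in all comparisons, and the second probes of Nr4a2 and Nr4a3 gave down to -0.31 and -0.32. Rorb, dim with a mean intensity of 85.6, had differences between -0.27 and 0.28.

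Among the other 11 orphan receptors 0 were higher and 3 lower at the unadjusted threshold in STZ than in control. That was 27.3%, beside 17% of all genes. In STZ+MENS, 2 were higher and 0 lower than in STZ (18.2%, beside 25.4%). Nr0b1 (DAX-1), an SHP relative best known from the adrenal and gonad, had the largest difference to control of any member by its brightest probe, 17.08 and 17.37 in control, 16.06 and 16.19 in STZ, and 16.08 and 15.97 in STZ+MENS. Both diabetic groups lay below control (-1.10 ± 0.16, adjusted p = 0.0924, and -1.20 ± 0.16, adjusted p = 0.111). That probe carries the older name AHCH, while the probe named NR0B1 read 10.56 and 10.74, 10.45 and 10.28, and 10.86 and 10.61, with differences of -0.28 ± 0.16 and 0.08 ± 0.16 to control. Which of them reports Nr0b1 is not settled here, so the difference is the AHCH-named probe's. Nr2c1 (TR2), a repressor that competes for the binding sites of other receptors, stood at 10.38 and 10.32 in control, 9.86 and 9.96 in STZ and 10.52 and 10.36 in STZ+MENS. STZ was the low group (-0.44 ± 0.14 against control, adjusted p = 0.21, and 0.53 ± 0.14, adjusted p = 0.0964). The first missed the unadjusted threshold without any 1 of the control or STZ samples (-0.49 to -0.39), and the second without STZ sample 1 (0.48).

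Nr6a1 (GCNF), known from germ cells and the early embryo, stood at 13.21 and 12.83 in control, 12.88 and 13.18 in STZ, and 13.60 and 13.84 in STZ+MENS. It was 1.61-fold higher than in STZ (0.69 ± 0.20, adjusted p = 0.114) and 1.62-fold higher than in control (0.70 ± 0.20, adjusted p = 0.168). Both missed the unadjusted threshold without STZ+MENS sample 2 (0.57 and 0.58), as did the first without STZ sample 1 (0.53) and the second without control sample 2 (0.50). Nr2f6 (EAR2), a repressor, read 14.38 and 14.43, 14.13 and 14.15, and 13.65 and 14.06, with 3 groups that did not overlap and the lowest values in STZ+MENS (-0.55 ± 0.17 against control, adjusted p = 0.197). It missed the unadjusted threshold without control sample 1 (-0.57), control sample 2 (-0.52) or STZ+MENS sample 1 (-0.34). Nr5a1 (SF-1), the steroidogenic factor of adrenal and gonad, read 9.68 and 9.96, 9.44 and 9.21, and 9.70 and 9.50 (STZ against control -0.49 ± 0.17, adjusted p = 0.241) and missed the unadjusted threshold without control sample 2 (-0.35) or STZ sample 2 (-0.38). Hnf4g, a relative of the hepatocyte regulator HNF4 alpha, differed by -0.42 ± 0.18 for STZ against control (adjusted p = 0.315), and Nr2c2, Nr2e1, Nr2e3, Nr2f1 and Nr2f2 had differences between -0.32 and 0.35, none past the unadjusted threshold.

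Receptors act through cofactors, and 19 of 19 listed coactivators and 13 of 15 listed corepressors were measured. For STZ against control, 21.1% of the coactivators and 7.69% of the corepressors passed, beside 17% of all genes. For STZ+MENS against control the shares were 21.1% and 15.4%, beside 18%. For STZ+MENS against STZ, 2 coactivators were higher and 6 lower (42.1%, beside 25.4% of all genes, median -0.28). Of the corepressors, 4 were higher and 3 lower there (53.8%, beside 25.4%, median 0.11). The coactivator count was 3 when STZ sample 1 was left out, 4 when STZ+MENS sample 1 was and 5 when STZ+MENS sample 2 was. The corepressor count was 3 when STZ+MENS sample 1 was left out and 4 when STZ sample 2, STZ+MENS sample 2 or either control sample was. Ncoa2 (TIF2), a p160 coactivator of steroid receptors, stood at 11.05 and 11.17 in control, 11.56 and 11.29 in STZ, and 10.42 and 10.40 in STZ+MENS, below all others there (-1.02 ± 0.15 against STZ, adjusted p = 0.0595). Ppargc1b (PGC-1 beta), a partner of the estrogen-related receptors, was 1.06 ± 0.23 higher in STZ+MENS than in control. Kat2b, an acetyltransferase, and Ncoa4, a coactivator that also guides ferritin breakdown, differed by -0.52 ± 0.13 and -0.62 ± 0.20 for STZ+MENS against STZ. Cops2 (Alien), a corepressor of the thyroid hormone receptor, stood at 11.09 and 11, 11.47 and 10.99, and 9.36 and 9.82, the largest corepressor difference (-1.64 ± 0.23 against STZ, adjusted p = 0.0595). Gps2 and Hdac3, subunits of the NCoR complex, were 0.83 ± 0.16 and 0.56 ± 0.19 higher in STZ+MENS than in STZ. Nrip1 (RIP140), a corepressor of metabolic receptors, was 0.78 ± 0.23 higher in STZ than in control and differed by -0.63 ± 0.23 between STZ+MENS and STZ.

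Set side by side, 5 members had an unadjusted p under 0.05 both for a lower level in STZ than in control and for a higher level in STZ+MENS than in STZ: Nr1h4, Nr0b2, Thra, Esrra and Nr2c1. For Nr0b2 this holds for the SHP-named probe only, and the NR0B2-named probe gave 1.46, -0.41 and, against control, 1.05. Nr1d2 had the opposite order, with the gap between arrays given above, as did Vdr by a brightest probe for which no direction is read above. Both comparisons use the same STZ samples, so a chance deviation of those samples moves both. By their brightest probes, none of these 7 members had an unadjusted p under 0.05 for STZ+MENS against control, where their differences lay between -0.06 and 0.30. Nr3c1, Thrb, Esrrg and Rora were lower in STZ+MENS than in each of the other groups at that threshold, and Nr1i3, Nr6a1 and Rarg were higher than in each. The share of all genes with any of these orders was not counted, so none of these counts sets the members apart.

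**Figure D4:**
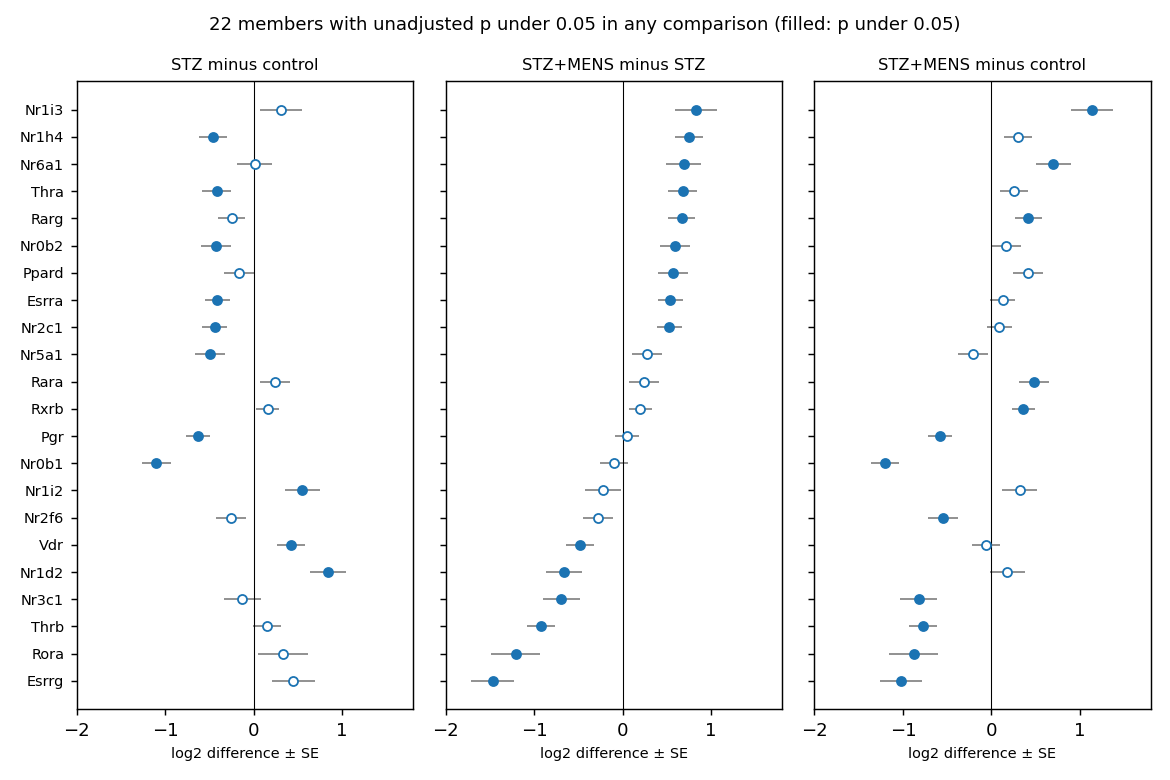
The 22 members with an unadjusted p under 0.05 in any comparison are rows, and each panel's x axis is the log2(intensity + 50) difference of 1 comparison, with bars for ± 1 SE from limma. Filled points have a p under 0.05, and rows are ordered by the middle panel, from Nr1i3 at 0.83 to Esrrg at -1.47.

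The members that were lower in STZ+MENS than in STZ are mostly genes of long genomic span, a feature the selection did not use. Against control, the 7 members lower in STZ+MENS had a median span of 109 kb, from 4.17 to 735 kb, and the 5 higher members a median of 22.6 kb. The 6 members lower in STZ+MENS than in STZ at p under 0.05 had a median span of 245 kb from first to last annotated base (RefSeq, GRCm38.p6), and the 9 higher members a median of 28.2 kb, beside 48.4 kb for all members. Over all genes the medians were 25.0 kb for lower and 17.4 kb for higher genes. Of the 13 members of at least 100 kb, 4 were lower and 1 was higher (Nr6a1), and of the 31 shorter members 2 were lower and 8 higher. Of all genes of at least 100 kb, 277 of 2162 were lower and 239 higher, and of 15546 shorter genes 1982 were lower and 2001 higher. Pearson's r between log2 span and the difference was -0.45 over the 44 members and -0.07 over 17708 genes with a span. Spearman's rho was -0.31 and -0.08. These are descriptions over genes that share the same 6 samples. Without Vdr and Nr0b2, which were left out after their values were seen because their arrays or probes disagree, the medians were 381 kb for the 5 lower and 39.0 kb for the 8 higher members. In 5 of the 6 lower members STZ+MENS sample 1 lay further from STZ than sample 2 did, the exception being Vdr, and in the 9 higher members sample 1 did so in 5 and sample 2 in 4. Sample 1 was also the further one for Apob, at 17.31 and 17.26 in control, 17.43 and 16.85 in STZ, and 14.21 and 15.84 in STZ+MENS, and for Cps1, at 17.09 and 16.67, 16.94 and 16.42, and 14.67 and 16.15. These were the 2 of 7 measured hepatocyte markers with a p under 0.05 in that comparison (28.6%, beside 25.4% of all genes). Alb, the serum albumin gene, stayed between 18.85 and 19.00. Markers of some other cells also differed, but not of all. For STZ against control, 0 of 8 endothelial and 0 of 10 Kupffer cell and macrophage markers passed the unadjusted threshold, beside 17% of all genes. For STZ+MENS against STZ the shares were 12.5% and 20%, beside 25.4%. At p under 0.05, 3 of 8 measured cholangiocyte markers were higher in STZ than in control (37.5%, beside 17% of all genes). Their list had a summed intensity of 16285 to 16691 in control, 19962 to 25552 in STZ and 18040 to 22876 in STZ+MENS. The 2 measured erythroid markers summed to 104836 in STZ+MENS sample 1 and 9330 in sample 2, against 79641 to 95699 in control and 32621 to 55363 in STZ. The part of either in the receptor values was not tested, nor was that of the differences between the STZ+MENS samples.

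**Figure D5:**
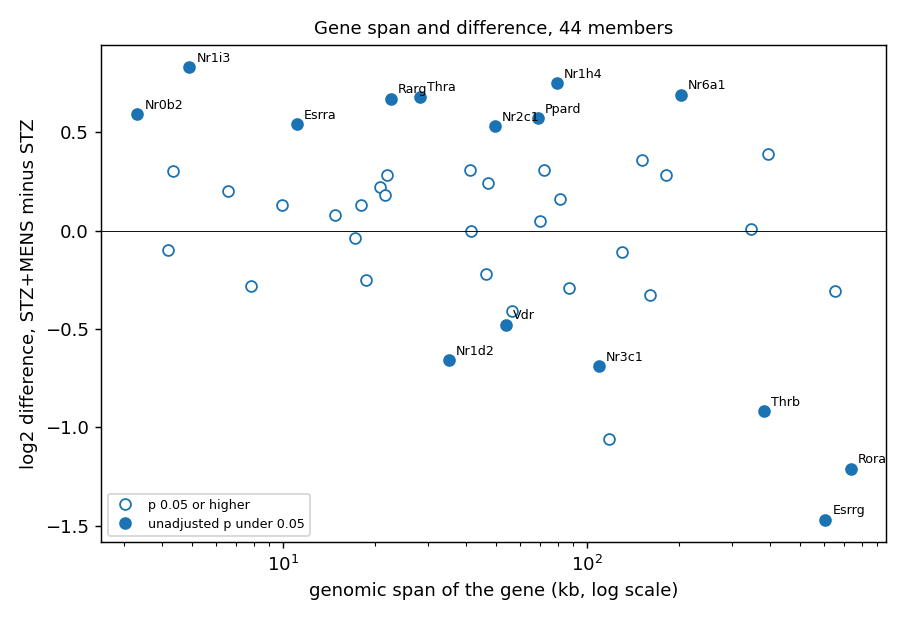
Each point is a member; the x axis is the genomic span of the gene in kb on a log scale, and the y axis the log2(intensity + 50) difference of STZ+MENS minus STZ. Filled points have an unadjusted p under 0.05, and Thrb, Rora and Esrrg lie at the lower right.

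The promoter windows of the members were searched for 7 motifs on both strands, over 250 bases before and 50 after each annotated start. A window was found for 40 of 44 members, giving 60 windows, whose motif shares are set beside those of all 32851 windows. With so few member windows, no difference of shares was tested. The hexamer AGGTCA was in 20.0% of member windows and 16.3% of all windows, and the extended form CAAGGTCA, which contains the hexamer, in 0.0% and 1.56%. The E-box CACGTG was in 10% and 7.15%, the GC box GGGCGG in 45.0% and 35.7%, and the TATA box TATAAA in 13.3% and 13.6%. The cAMP response element TGACGTCA was in 3.33% and 1.79% and the D-box TTATGNAA in 1.67% and 3.38%. A match is a description of the letters and not evidence of binding.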

How the data were processed

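Total RNA of 6 mouse liver samples was labelled with Cy5 and read on 12 single-colour Phalanx Mouse OneArray version 2 arrays, per the labels' protocols. The deposited values are linear probe intensities. How they were background-corrected and normalized is not given in the sources used here, and limma 3.30.7 is named in the submitters' processing notes without a role. Sorted values were nearly alike on all arrays (spread of at most 6.3%, leaving out the lowest 1000), and between 44 and 52 of 26423 probes per array were below 0, the forms that quantile normalization and background subtraction leave.

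Of these probes, 20377 had 1 gene symbol in the platform annotation, 0 had several and 6046 were unnamed. By RefSeq, 18213 names were current, 2126 were synonyms and 38 were kept as given. The brightest of 2 or more probes stood for each of 2278 genes, including 7 members. Values below 0 were set to 0, 50 was added and log2 was taken, which understates changes of dim genes. Each sample's 2 arrays were then averaged. All 3 groups were fitted with limma 3.58.1 in R 4.3.3 (3 residual and 3.2 prior degrees of freedom), with Benjamini-Hochberg adjustment over 17742 genes. With 2 samples a group, no exact permutation test could go below p = 0.33. The number of arrays limits the precision. The script was tested on simulated data.

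Samples were grouped by their treatment label. The members, role groups, related gene lists, marker lists and tests were chosen with earlier results of these data known. Members with an unadjusted p under 0.05 in any comparison, and 15 receptors whatever their result, are given with all samples, and the others by range. Up to 4 genes with the smallest p of each related list are named, and Tat is named besides. The 19 alternatives covered the offset, the probe, a filter on dim genes, normalization, the unit of the fit, the arrays, the samples, the prior, a replicate block and each sample left out, and 2 of them, on the choice of probe, were added after seeing the data. Spans, names and promoter sequences are from RefSeq tables of GRCm38.p6.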

Additional observations from a re-analysis of the deposited data

How the results depend on the processing

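The number of members past the adjusted threshold moved from 0 only where the 12 arrays were fitted with the liver sample as a random effect, or without STZ+MENS sample 2. The random effect gave 3 members for STZ against control (Nr0b1, Nr1i2 and Pgr), 11 for STZ+MENS against STZ and 7 for STZ+MENS against control, beside 6.79%, 17.4% and 7.53% of all genes. That fit assumes the same correlation between the arrays of a sample for every gene and counts each array toward its degrees of freedom. Its added calls thus come with more arrays and not with more samples. Leaving out single samples gave 0 to 5 for STZ+MENS against STZ, the 5 being Esrrg, Nr1h4, Nr3c1, Rora and Thrb, beside 9.91% of all genes; with 1 sample left in a group, that sample is assumed to vary like the others. At an unadjusted p under 0.05, the 11 members for STZ against control became 4 with the second array of each sample only (9.09%, beside 12.8% of all genes), and leaving out single samples gave 3 to 11 for STZ against control, 9 to 16 for STZ+MENS against STZ and 7 to 14 for STZ+MENS against control, beside 10.2% to 19.8%, 13.5% to 29.1% and 10.2% to 21% of all genes. With the sample number as a replicate block the counts were 10, 16 and 10 at an unadjusted p, beside 15.4%, 22.7% and 16.2% of all genes, and 0 at an adjusted p. Samples with the same number did not deviate together by this correlation (r = 0, -0.03 and -0.07). A pairing that touches only part of the genes was not tested.

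Among differences past the unadjusted threshold with or without the change, directions reversed for 3 members. Differences that did not pass also changed sign, at most 11 of 132 in a setting, such as Ppara for STZ+MENS against STZ, from 0.31 to -0.38 with its second probe. Nr0b2 for STZ against control was 0.51 with the mean of all probes and 1.46 with synonym-named probes left out or with the second brightest probe, and -0.41 under both of the latter for STZ+MENS against STZ. Vdr was -0.12 with the second array of each sample only and -0.07 with its second probe for STZ against control, 0.2 with the first array only and 0.16 with its second probe for STZ+MENS against STZ, and 1.16 with the first array only for STZ+MENS against control. Nr0b1 was 0.08 for STZ+MENS against control without the AHCH-named probe. The cause was not tested. With 2 samples a group, differences of the size seen between samples of a group cannot be told from it, and dim members such as Pparg are limited by their signal over background.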
